A study of Homo sapiens with 2 samples.

Results

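The factors ETV1, ETV4 and ETV5, the Sprouty proteins SPRY1, SPRY2 and SPRY4, the Spred proteins SPRED1 and SPRED2, and the early response gene IER3 were examined in A549 cells under static and stretch culture. These 9 genes were chosen by name as genes that ERK signalling induces, and as inhibitors that act back on it. They and the gene lists below were chosen with earlier results of these data known, so counts among them are descriptive only. The array's annotation table named 6 of the 9, with 16 probe sets, out of 14884 named genes and 53617 probe sets in all. SPRY1, SPRED1 and SPRED2 are unnamed here and have no value below. A549 is an established human lung adenocarcinoma line. Total RNA was measured on 1 Affymetrix array after 4 h of static culture and on 1 array after 4 h of stretch. The treatment of the cells is otherwise described alike for both arrays. The sources used here give neither how far or how fast the cells were stretched nor how many cultures supplied each RNA. One sample title spells the line A594, and the group was read from the source name, which has A549.

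Growth factor receptors activate RAS, which switches on the kinases RAF, MEK and ERK. ERK then induces transcription factors and also its own inhibitors. ETV1, ETV4 and ETV5 form the PEA3 subfamily of ETS factors, which bind DNA at sites built around GGAA and act downstream of receptor kinases in branching epithelia such as the lung. They are repressed by the HMG-box protein CIC, which ERK relieves, and are degraded through the ubiquitin ligase COP1. Sprouty proteins are membrane-associated inhibitors that dampen receptor signalling to RAS and RAF. Spred proteins recruit the RAS-GTPase activating protein neurofibromin to the membrane. IER3 (also called IEX-1) is a short-lived early response protein that modulates ERK signalling and cell survival and is also induced by NF-κB.

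Promoter sequences show what the starts of these genes carry, and 3 are printed because they stand for the member with a large difference, its relative with almost none, and the one window with a CIC-type motif. They are the 250 bases before a RefSeq transcription start, read 5′ to 3′ on the gene's strand in GRCh38.p14. The RefSeq promoter table used here held ETV1 (6 starts), SPRY2 (3 starts) and SPRY4 (1 start) of the measured members. ETV4, ETV5 and IER3 are named only. Capitals mark motif matches.
SPRY4, chr5:142324248-142324497, minus strand: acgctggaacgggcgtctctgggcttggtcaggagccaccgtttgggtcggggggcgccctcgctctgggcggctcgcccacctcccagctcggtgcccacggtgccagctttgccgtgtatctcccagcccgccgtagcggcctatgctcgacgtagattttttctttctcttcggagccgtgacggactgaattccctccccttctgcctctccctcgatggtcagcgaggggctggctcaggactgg
SPRY2, the first of its listed starts, chr13:80341127-80341376, minus strand: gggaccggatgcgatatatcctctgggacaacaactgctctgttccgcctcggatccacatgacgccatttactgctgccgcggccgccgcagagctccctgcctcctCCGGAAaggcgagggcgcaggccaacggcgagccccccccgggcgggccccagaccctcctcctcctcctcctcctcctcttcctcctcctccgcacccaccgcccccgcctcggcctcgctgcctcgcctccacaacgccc
ETV1, the second of its listed starts, chr7:13991426-13991675, minus strand: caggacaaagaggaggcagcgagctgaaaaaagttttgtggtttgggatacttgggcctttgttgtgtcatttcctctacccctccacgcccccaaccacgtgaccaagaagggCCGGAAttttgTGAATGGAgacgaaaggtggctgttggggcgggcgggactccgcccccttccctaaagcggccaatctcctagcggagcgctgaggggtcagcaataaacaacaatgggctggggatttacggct

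Motifs were searched on both strands. The ETS motif CCGGAAGT is found in 3.42% of 35116 RefSeq promoter windows of this length, the AP-1 motif TGANTCA in 6.57%, the cAMP response element TGACGTCA in 1.65% and the TEAD motif GGAATG in 11.9%. None of these 4 was found in any window of SPRY4, SPRY2 or ETV1. The CIC-type octamers TGAATGAA and TGAATGGA are found in 1.4% and 0.832% of windows. The second ETV1 window holds TGAATGGA, starting 125 bases before the start. A shorter ETS core, CCGGAA, was added after the windows were seen. It is contained in the ETS motif above and is found in 14.5% of windows. It begins 136 bases before the start in the second ETV1 window, 11 bases upstream of the CIC-type octamer. It begins 142 bases before the start in the first SPRY2 window, and it also lies in the first and the fourth ETV1 windows, which overlap. SPRY4 holds none of the motifs searched, so its window is in lower case throughout. Letter matches of this kind describe the window and do not show binding.

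All values are RMA signals on the log2 scale, and the difference is stretch minus static, so that a difference of 1 is 2-fold. With 1 array per condition there is no replicate, no test and no error on any value, and precision is limited by the number of arrays. Intensities of different probe sets cannot be read as relative amounts of RNA, so each difference is taken within a probe set. The background bound, the level filter, the groups of like signal and the ordering by brightness do compare signals between probe sets. They are rough guides to signal and give no amounts of RNA. Background was bounded at 4.14, the 95th percentile of the signals of 16 named genes of unrelated tissues. The medians of these 16 genes were 1.99 on the static array and 1.96 on the stretched array. Only PRM2 on the static array (4.23) and MBP on the stretched array (4.45) exceeded the bound. A signal under the bound can therefore still lie above most of these genes. The difference of the 16 genes between arrays had a robust SD of 0.32. Of 6 named markers of A549 and lung epithelium, 4 lay above this bound on both arrays, among them the keratin KRT7 at 5.41 and 7.56 and the epithelial adhesion molecule EPCAM at 5.30 and 4.71, static before stretched. The keratin KRT19 (3.77 and 3.78) and the tight junction gene CLDN4 (2.29 and 2.02) lay under it, as did all 5 named alveolar type II markers. All named fibroblast (2) and endothelial (3) markers lay under the background bound. Of 3 named leukocyte markers, the lysosomal protein CD68 read 7.51 and 8.58, the co-receptor CD14 5.13 and 5.53, and the lysozyme gene LYZ 2.40 and 1.90, static before stretched. The leukocyte-defining gene PTPRC is unnamed here, and the part of such cells in the results was not tested.

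Of the 6 measured members, ETV4 and SPRY4 were each more than 3-fold higher on the stretched array. The other members lay between 0.01 and 0.44. None was lower. At 1.5-fold, a log2 difference of 0.585, 2 of 6 members were higher, against 27.7% of the 10981 named genes whose higher value reached 2.52, the median of all values. All 6 members passed this level filter. The share of members is near that background, so the count says little about the members as a group. At 2-fold the count was again 2 of 6, with a background of 12.3%. Lower by 1.5-fold were 0 of 6, against 8.9% of genes, and lower by 2-fold 0 of 6, against 2.5%. These shares varied with signal. Among genes with a mean signal from 1.97 to 3.085, 8.56% were at least 1.5-fold higher and 17.9% lower. From 5.0 to 6.21, 41.2% were higher and 3.73% lower. The gene lists below are set beside the shares of all genes, not those of genes of like signal. The median difference of the members was 0.41 and that of all genes past the filter was 0.20, with quartiles at -0.17 and 0.65. The lean of all genes towards higher values depended on scaling: genes past 1.5-fold were 16.5% higher and 14.0% lower after quantile normalization, 18.7% and 12.1% after loess on level, 33.1% and 6.35% after centring each array on its median, and 14.0% and 22.6% after centring on reference genes.

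**Figure D1:**
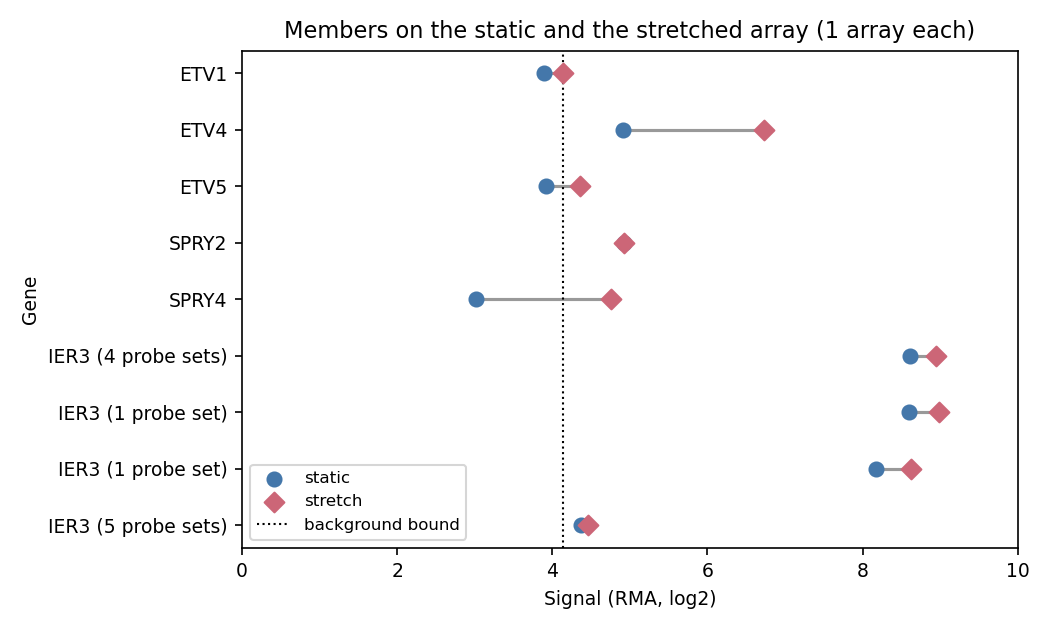
Signal (RMA, log2) of each member on the static array (blue circles) and the stretched array (red diamonds), 1 array each, with the background bound of 4.14 dotted. IER3 is drawn once per distinct pair of values, and the widest gaps are those of ETV4 (4.91 to 6.73) and SPRY4 (3.01 to 4.76).

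Among the 3 PEA3 factors, ETV4 alone passed 1.5-fold. ETV4, known as an effector of receptor kinase signalling in epithelial migration and invasion, went from 4.91 on the static array to 6.73 under stretch. The difference of 1.82 is 3.53-fold, and ETV4 ranked 196th from the top of the 10981 genes. Both signals lay above the background bound. Among the 1699 genes whose mean signal lay within 0.5 of that of ETV4, 40.3% were at least 1.5-fold higher and the median difference was 0.45, so ETV4 stood above most genes of like signal.

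ETV5, which shares the DNA-binding domain type of ETV4 and takes part in alveolar type II cell maintenance, read 3.92 under static culture and 4.36 under stretch. Its difference was 0.44, or 1.36-fold, with the static value under the background bound and the stretched value 0.22 above it. ETV1, the remaining PEA3 factor, read 3.89 and 4.14, a difference of 0.25 (1.19-fold). Its static signal lay under the bound and its stretched signal at it. Genes within 0.5 of the mean signals of ETV5 and ETV1 had median differences of 0.26 and 0.22, close to the values of both genes. Low signals are compressed in RMA, so a difference from a value under the bound can understate a change in RNA. Differences of the unrelated-tissue genes ran from -0.72 (GFAP) to 0.63 (MBP). That range holds the differences of both ETV5 and ETV1.

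The Sprouty genes divided in the same way. SPRY4, an inhibitor of receptor kinase signalling upstream of RAF, went from 3.01 on the static array to 4.76 under stretch. The difference of 1.75 is 3.36-fold and ranked 228th of 10981 genes. Its static signal lay 1.13 under the background bound and its stretched signal 0.62 above it, so the size of the difference is not firm. Among 2307 genes with a mean signal within 0.5 of that of SPRY4, 27.5% were at least 1.5-fold higher, and their median difference was 0.18.

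SPRY2, which binds the ubiquitin ligase CBL and the adaptor GRB2, read 4.92 under static culture and 4.93 under stretch. Its difference was 0.01, with both signals above the background bound. The 2105 genes of like mean signal had a median difference of 0.44, and 40.3% of them were at least 1.5-fold higher, so SPRY2 lay below the middle of its signal range.

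IER3 was the brightest member and was measured by 11 probe sets, which gave 4 distinct pairs of values. The bright group of 6 probe sets read from 8.17 to 8.61 under static culture and from 8.62 to 8.98 under stretch, with differences from 0.33 to 0.45. The brightest by mean read 8.60 and 8.98, a difference of 0.38 (1.30-fold). The other 5 probe sets all read 4.37 and 4.46, a difference of 0.09. All 11 therefore had the same sign and none reached 1.5-fold. Probe sets with identical values add no separate measurement. IER3 is one of 56 genes on chromosome 6 among the 72 named genes with 5 or more probe sets, and no other named gene had 11. The 252 genes of like signal had a median difference of 0.265.

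**Figure D2:**
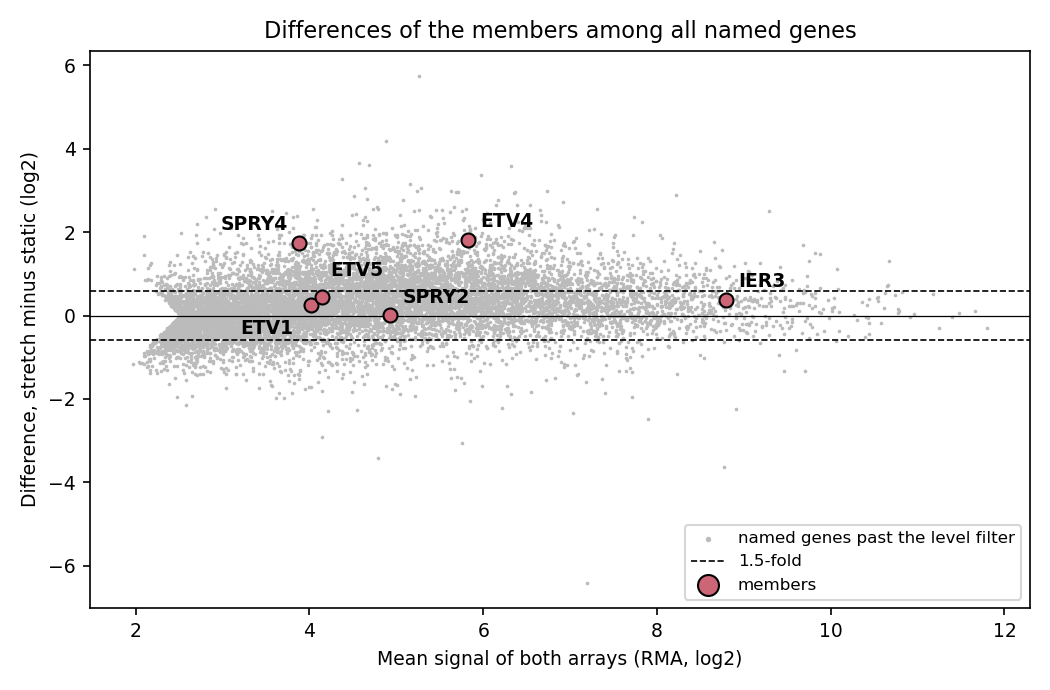
Difference between the arrays (stretch minus static, log2) against the mean signal of both arrays (RMA, log2) for the 10981 named genes past the level filter (grey points), with the 6 members in red and 1.5-fold as dashed lines. ETV4 (1.82) and SPRY4 (1.75) lie above most grey points of like signal, with other genes higher still, and the other 4 members lie inside the dashed lines.

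ETV4 and SPRY4 were past 1.5-fold, and the other members were not, under each of 4 other normalizations. The difference of ETV4 ranged from 1.41 (quantile) to 1.92 (median centring) and that of SPRY4 from 1.41 (reference genes) to 1.85 (median centring). ETV5 lay between 0.10 and 0.54 and IER3 between 0.04 and 0.48. The sign of ETV1 and SPRY2 was not kept: ETV1 stood at -0.09 after centring on reference genes, and SPRY2 at -0.38 after quantile normalization, -0.31 after loess and -0.33 after centring on reference genes. The median of all genes past the filter itself moved by 0.11 with median centring, by -0.20 with quantile normalization, by -0.15 with loess and by -0.36 with reference genes. Measured against that median, and over the alternative level filters and the mean of probe sets as well, ETV4 stood 1.41 to 1.76 above it and SPRY4 1.34 to 1.69 above it. ETV1 stood near it, from 0.012 to 0.19 above, so its change of sign follows the scaling of all genes. SPRY2 stood below it in each, from -0.40 to -0.05.

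**Figure D3:**
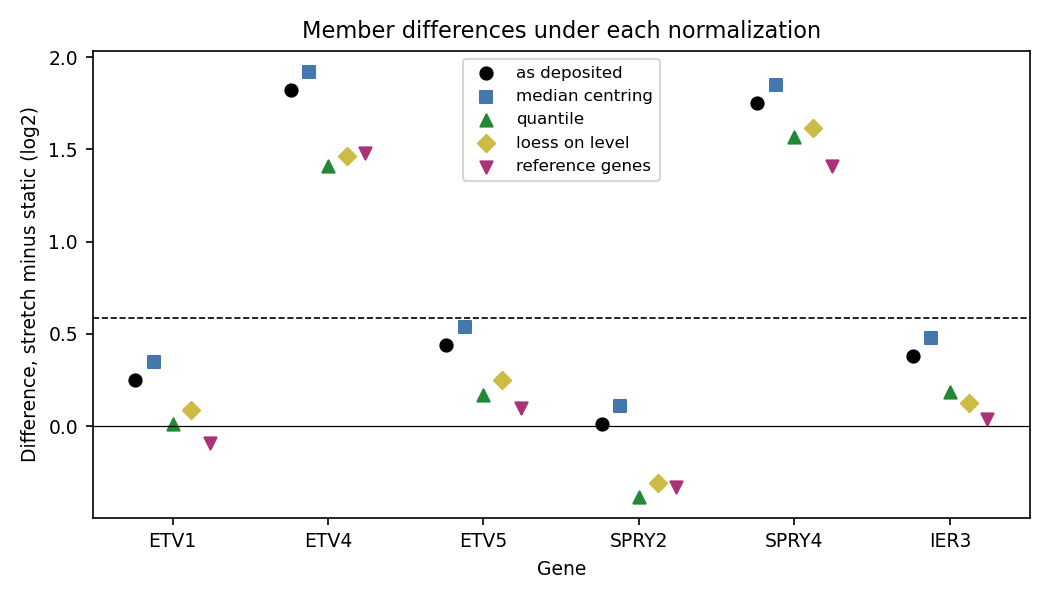
Difference of each member (stretch minus static, log2) as deposited and under 4 other normalizations, with 1.5-fold as a dashed line. ETV4 and SPRY4 stay between 1.41 and 1.92, and ETV1 and SPRY2 fall on both sides of 0.

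The kinase cascade upstream of these genes had 20 of 30 listed genes named and 19 past the level filter. Of these, 10 were at least 1.5-fold higher (27.7% of all genes), 1 was lower (8.9% of all genes) and 8 lay between. The median difference was 0.63 against 0.20 for all genes, and it was 0.20 after quantile normalization, 0.28 after loess and 0.14 after centring on reference genes. AXL, a receptor tyrosine kinase for GAS6, read 6.03 and 8.59, a difference of 2.56 (5.90-fold). SHC1, an adaptor that couples receptors to GRB2 and RAS, had a static signal of 7.08 and a difference of 1.92 (3.78-fold). FGFR1, a fibroblast growth factor receptor, read 4.25 and 5.60 (1.35). The MEK kinase MAP2K2, counted among the 10, read 2.27 and 3.58, under the background bound on both arrays, and passed the level filter through its stretched value alone. Chosen after their values were seen, the RAS exchange factor SOS1 was the 1 lower gene (-0.89), and the kinases MAP2K1 and MAPK3 stood at -0.01 and -0.33.

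Other transcripts that ERK induces had 20 of 24 listed genes named, and all 20 passed the level filter. Of these, 11 were at least 1.5-fold higher (27.7% of all genes), 2 were lower (8.9% of all genes) and 7 lay between. At 2-fold the counts were again 11 and 2, where 12.3% of all genes were higher and 2.5% lower. The median difference was 1.09. EREG, an EGF receptor ligand, read 6.77 and 9.67, a difference of 2.90 (7.46-fold). The receptor EPHA2, a transcriptional output of RAS and ERK, read 4.98 and 7.42 (2.44). DUSP5, a nuclear ERK phosphatase, stood at 2.25 by its brighter probe set, while its dimmer one stood at -0.35. FOS stood at -2.22, and with EGR1 (-1.95, chosen after its value was seen) made up the lower pair. These are their brighter probe sets, and the dimmer ones stood at -1.52 for FOS and -0.71 for EGR1. ETV4 and SPRY4 thus had differences within the range of the 11 higher genes, from 1.01 for HMGA2 to 2.90 for EREG. DUSP6, an ERK phosphatase often read together with the ETV and Sprouty genes, stood at 0.47, from 5.24 to 5.71, near ETV5 and IER3 in its difference. CCND1, the cyclin of G1, stood at 1.38. HMGA2, DUSP6 and CCND1 were chosen after their values were seen.

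**Figure D4:**
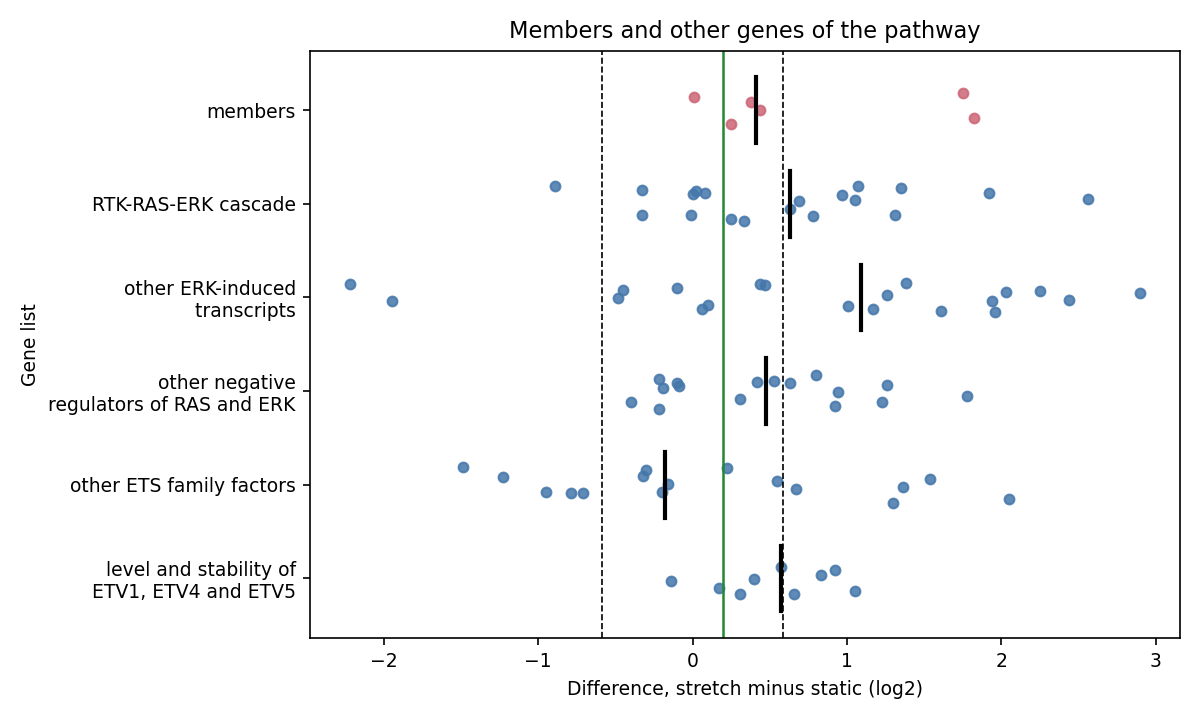
Differences (stretch minus static, log2) of the 6 members (red) and of the genes past the level filter in 5 lists of other pathway genes (blue), 1 point per gene with vertical jitter. Black bars mark list medians, the green line the median of all genes (0.20) and the dashed lines 1.5-fold; the medians run from -0.18 for other ETS factors to 1.09 for other ERK-induced transcripts.

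Among other negative regulators of RAS and ERK, 16 of 27 listed genes were named and all 16 passed the filter. Of these, 7 were at least 1.5-fold higher (27.7% of all genes), 0 were lower (8.9% of all genes) and 9 lay between, with a median of 0.475. After centring on reference genes 4 were higher and 1 lower, with a median of 0.135. The median was 0.16 after quantile normalization and 0.24 after loess. RASA2, a RAS-GTPase activating protein, read 3.94 and 5.72 (1.78), close to SPRY4 in its difference and likewise from a static value under the background bound. RASAL2, a further activating protein of this kind, stood at 1.26, the ERK phosphatase DUSP7 at 1.23 (from 3.82) and ERRFI1, the feedback inhibitor of the EGF receptor, at 0.94, from 8.36 to 9.30. NF1, the neurofibromin that Spred proteins recruit, read 7.62 and 7.52 (-0.10). TESK1, a kinase that binds Sprouty proteins, stood at 0.63. IL17RD, the receptor-level inhibitor also called SEF, stood at -0.40, from 3.16. These last 3 genes were chosen for their known ties to the members after their values were seen.

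Of 25 other ETS factors listed, 20 were named and 16 passed the filter. Of these, 5 were at least 1.5-fold higher (27.7% of all genes), 5 lower (8.9% of all genes) and 6 between, with a median of -0.18. ERG (3.23 on the static array, difference -1.23) and FEV (3.22, difference -0.71), 2 of the 5 lower factors, lay under the background bound on both arrays and passed the filter through their static value alone. Both were singled out after seeing their values. ETS1, a founding ETS factor that ERK phosphorylates, read 4.19 and 6.24, a difference of 2.05 (4.14-fold). ELF4 stood at 1.54 and ETV3, a repressor of the family, at 1.36, from 3.97 to 5.33. EHF, an epithelial ETS factor, was at the other end, reading 6.37 and 4.88 (-1.49). ETV4 thus lay between ETS1 and ELF4 in its difference. Of the others, ERF, the ETS repressor that ERK exports from the nucleus, stood at 1.30 and ETS2 at 0.67, both chosen after their values were seen. A stricter level filter of 4.24, the upper quartile of all values, gave this list a median of 0.55, with 3 factors lower by 1.5-fold.

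Genes that set the level or stability of the PEA3 factors had 9 of 12 listed genes named, all past the filter. Of these, 4 were at least 1.5-fold higher (27.7% of all genes), 0 were lower (8.9% of all genes) and 5 lay between, with a median of 0.57. CIC, the repressor of the ETV genes, read 4.19 and 4.85, a difference of 0.66. DET1, a partner of COP1 in the ligase that degrades PEA3 factors, read 4.96 and 5.79 (0.83). TRIB3, a pseudokinase of the Tribbles family that includes COP1 adaptors, stood at 1.05 and the kinase DYRK1A at 0.92. COP1 is unnamed here. After quantile normalization, loess or centring on reference genes, 1 of these 9 genes passed 1.5-fold, namely TRIB3 (0.62, 0.69 and 0.71). CIC stood at 0.32, 0.40 and 0.32 in that order.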

How the data were processed

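Each array's group came from the sample's source name. The authors deposited log2 values for 53617 probe sets on 2 arrays, made with RMA per the submitters' processing notes. Software and chip definition are not given in the sources used here. Values ran from 0.60 to 12.7, which gave the log2 scale. The sorted columns differed by up to 0.45, so the normalization between arrays is unknown. Probe sets were named through the platform annotation (16098 with 1 symbol, 0 with several, 37519 unnamed here), with symbols updated by gene identifier through the RefSeq table of GRCh38.p14, where 16098 matched. The probe set with the highest mean stood for a gene, and genes counted when the higher value reached 2.52. With 1 array per condition no p-value was computed. The calculation was tested on simulated data. The text names all members, and of each list up to 4 genes past the filter with the largest absolute differences. The members and lists were chosen with earlier results of these data known. Of 33 unrelated-tissue genes 16 were named, and of 15 reference genes 6. Alternatives were 4 normalizations (median centring, quantile, loess with span 0.3, reference genes), no level filter or one at 4.24, the mean of all probe sets, and 2-fold. Python 3.11.15, numpy 2.4.6, pandas 2.3.3, statsmodels 0.14.6 and matplotlib 3.10.9 were used.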

Additional observations from a re-analysis of the deposited data

How the results depend on the processing

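Under all 8 alternatives tried, ETV4 and SPRY4 were the members past the threshold and 0 members were lower. Only the 4 normalizations could change the differences of ETV4 and SPRY4, which have 1 probe set each. The level filters, the mean of probe sets and the 2-fold threshold left these differences at 1.82 and 1.75, so those settings add little. With 1 array per condition these settings show the effect of processing and not of replication, and signals near background limit SPRY4, ETV1 and ETV5. A shift of a difference or median was called large when it exceeded 0.32, the robust SD of unrelated-tissue genes. For a share of genes, a shift was called large when the share changed by more than 1.5-fold. Centring on reference genes moved the members' median to 0.07, the kinase cascade to 0.14, other ERK-induced transcripts to 0.75, negative regulators to 0.135, other ETS factors to -0.52 and the genes that set ETV stability to 0.23. That setting rests on 6 genes whose own differences ran from -0.22 (B2M) to 1.72 (PPIA). The cascade stood at 0.20 after quantile normalization and 0.28 after loess. Under the stricter level filter of 4.24, negative regulators stood at 0.80 and other ETS factors at 0.55, with fewer genes in each. ETV1, with both signals under that filter, dropped out there. Of all genes, 16.5% were higher and 14.0% lower by 1.5-fold after quantile normalization, and 14.0% and 22.6% after centring on reference genes. Under the filter of 4.24, 38.9% of genes were higher and 5.64% lower, and only the lower share moved by more than 1.5-fold. At 2-fold, 12.3% were higher and 2.5% lower. The causes of these shifts were not tested. No paired analysis was possible because each condition has 1 array.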
